A study of Mus musculus with 12 samples.

Results

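The 10 genes described here carry glucose into the cell, break it down to pyruvate and settle where pyruvate goes. They were taken by name from a table of 21885 genes: the glucose transporter genes Slc2a1 and Slc2a3, the hexokinase genes Hk1 and Hk2, the glycolytic enzyme genes Pfkl, Aldoa, Pgk1 and Pkm, the lactate dehydrogenase gene Ldha and the pyruvate dehydrogenase kinase gene Pdk1. All 10 were in the table and all 10 passed the filter on low values.

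Glucose enters lymphoid cells through facilitative transporters and is trapped by hexokinases as glucose 6-phosphate. Phosphofructokinase commits it to glycolysis, aldolase splits the sugar, and phosphoglycerate kinase and pyruvate kinase gain ATP. Lactate dehydrogenase turns pyruvate into lactate, while pyruvate dehydrogenase kinases hold back its entry into the mitochondrial citric acid cycle. Many of these genes are known targets of the hypoxia-inducible factors HIF-1 and HIF-2 and of Myc, and in B-lineage cells Pax5 and other B-cell transcription factors are known to restrict glucose uptake.

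RNA-seq libraries were made with a full-length kit from sorted mouse cells, 4 per group. P80R B-ALL stands for sorted GFP+ leukaemia cells (B-cell acute lymphoblastic leukaemia) carrying the PAX5 P80R mutation, from primary recipients 1300, 1301, 1302 and 1308, and values of B-ALL libraries are given in that order. Pax5 KO stands for CLP and pre-pro-B cells, early lymphoid progenitors, of Pax5-/- fetal liver. Pax5 WT stands for later cells, pro-B/pre-BI, of Pax5+/+ fetal liver. Genotype and stage thus changed together between Pax5 KO and Pax5 WT, and their parts cannot be told apart. B-ALL cells came from recipients and both other groups from fetal liver. Leukaemia, genotype and source thus changed together in both comparisons of B-ALL, and their parts cannot be told apart either. Ages, strains, any vector carrying the mutant and the recipients' treatment are not stated in the labels. The labels give 4 samples for each fetal liver group and do not say whether each was a separate embryo, so p-values for these groups measure the spread between libraries, which may be technical.

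The deposited values are read counts divided by 1 scaling factor per library, here called scaled counts. Depth was 24914250 to 29386256 reads in B-ALL, 36871775 to 43513852 in Pax5 KO and 33191950 to 39465256 in Pax5 WT, and the lowest value of any of the 10 genes, 152.6, rested on 124 reads. Pax5 itself had 847, 1146, 1316 and 255 scaled counts in B-ALL, 229.9 to 267 in Pax5 KO and 6194 to 7316 in Pax5 WT. The deleted part of Pax5 is not stated in the labels, so reads in Pax5 KO are no check of the deletion. B-lineage markers took 0.263% to 0.392% of reads in B-ALL, 0.138% to 0.151% in Pax5 KO and 0.725% to 0.823% in Pax5 WT, and no B-lineage marker was at 0 in a whole group. B-ALL libraries spread more than the others: the median SD of log2 values of the 10 genes was 0.47 in B-ALL, 0.07 in Pax5 KO and 0.10 in Pax5 WT, against 0.47, 0.11 and 0.16 over 12200 tested genes. Recipients 1300 and 1308 stood apart by their erythroid and their granulocyte and monocyte markers. Erythroid markers took 1.27%, 0.108%, 0.101% and 2.87% of B-ALL reads, against at most 0.000713% in Pax5 KO and 0.000532% in Pax5 WT, where 6 and 5 of 11 erythroid markers were at 0 in every library. Granulocyte and monocyte markers took 0.428%, 0.037%, 0.015% and 0.662% of reads in B-ALL, 0.030% to 0.033% in Pax5 KO and 0.002% in Pax5 WT. Macrophage markers took 0.016%, 0.021%, 0.020% and 0.100% in B-ALL, 0.007% in Pax5 KO and under 0.001% in Pax5 WT. T-lineage markers took 0.038%, 0.041%, 0.021% and 0.040% in B-ALL, 0.014% to 0.015% in Pax5 KO and 0.001% to 0.002% in Pax5 WT. Of 8 hepatocyte markers, 5 were at 0 in every B-ALL library, 5 in every Pax5 KO library and 6 in every Pax5 WT library. The leukaemia cells had been sorted as GFP+. More cells of a type and more RNA per cell cannot be told apart in such libraries, and for some genes differences of B-ALL are also given without recipients 1300 and 1308.

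Levels between genes are compared as TPM, a length-corrected share of a library's transcripts. It was computed here from recovered reads and the merged length of all annotated exons of a gene, which can exceed that of its transcripts. How reads matching several places were counted is not known here, so the levels of Ldha, Pgk1 and Aldoa are uncertain. Ldha was the most abundant of the 10 in every group, with 1398 ± 529 TPM in B-ALL, 1765 ± 58.2 in Pax5 KO and 2746 ± 44.1 in Pax5 WT (SD, n = 4 each). Pkm, Pgk1 and Aldoa followed, and in B-ALL their TPM ranges overlapped one another: 169 to 497 for Pkm, 160.2 to 369 for Pgk1 and 150.2 to 291 for Aldoa. Hk2 was the lowest of the 10 by mean TPM in B-ALL (6.45 ± 3.59) and in Pax5 KO (10.4 ± 0.697), while Slc2a3 was the lowest in Pax5 WT (6.09 ± 0.760). Summed over the 10 genes, TPM was 1735, 3035, 3067 and 1474 in B-ALL, 3670.4 to 3893 in Pax5 KO and 5250.5 to 5352 in Pax5 WT. Most of this came from Aldoa, Pgk1, Pkm and Ldha, with 1369 to 2885, 3413 to 3620.4 and 5032 to 5136 TPM in the same order. Slc2a1, Slc2a3, Hk1, Hk2 and Pdk1 instead had higher mean TPM in Pax5 KO than in Pax5 WT. The 3 groups did not overlap in the sum of the 10 genes on this scale, but the order can differ on the deposited scaling used for the tests. For Pgk1, recipient 1301 had 10808 scaled counts, above every Pax5 KO library (6729 to 7575). Its 369 TPM lay within the Pax5 KO range (336 to 370). The 10 genes took 0.210% to 0.389% of all reads in B-ALL, 0.405% to 0.427% in Pax5 KO and 0.564% to 0.606% in Pax5 WT.

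**Figure D1:**
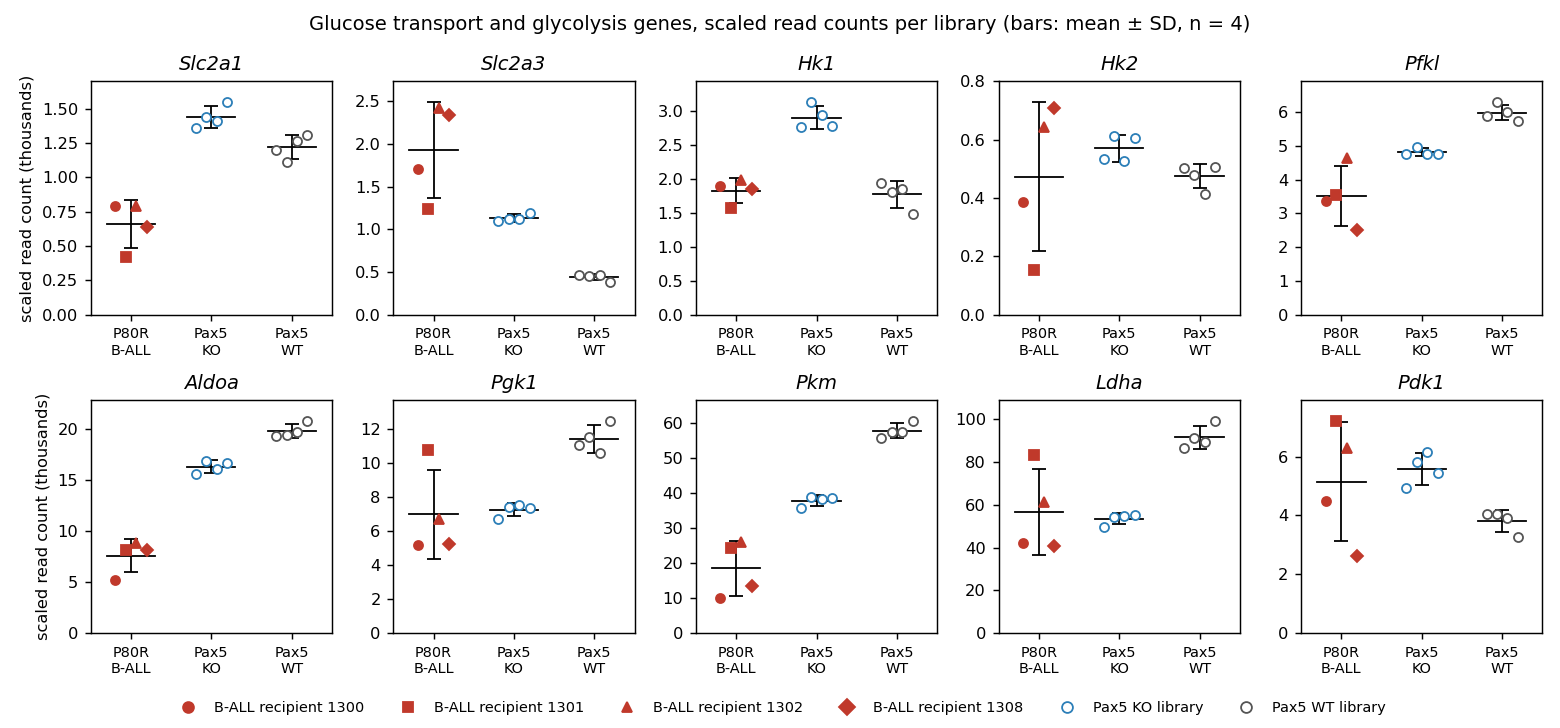
Scaled counts divided by 1000 (y axis, from 0) of the 10 genes in each library of P80R B-ALL, Pax5 KO and Pax5 WT, with 1 point per library and bars at the mean ± SD of 4 libraries; the shape of a red point gives the B-ALL recipient. Slc2a3 is highest in B-ALL, Aldoa and Pkm are lowest there, and the B-ALL points of Hk2 and Pdk1 spread beyond both other groups.

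RefSeq promoters of the GRCm38.p6 build, 250 bases before to 50 bases after a start, were in the reference table for 9 of the 10 genes, all but Slc2a3. The reads had been mapped to the mm39 build, so these windows serve for their letters only. All 9 genes had at least 1 promoter holding ACGTG or GCGTG on either strand, the core letters that hypoxia-inducible factors are known to bind, as did 11 of their 15 promoters. Of all 32851 promoters there, 43.8% held either core, 19.6% held ACGTG and 32.4% held GCGTG. The palindrome CACGTG, an E-box known to be bound by Myc, contains ACGTG and was in 7.15% of all promoters. Promoters of the 9 genes that held a core had 13 to 30 CG dinucleotides, against a median of 7 over all promoters. The windows of Ldha (chr7:46845554-46845853, plus strand) and Pgk1 (chrX:106186850-106187149, plus strand) are shown because both genes were lower in Pax5 KO than in Pax5 WT. Those of Slc2a1 (chr4:119108495-119108794, plus strand) and Pdk1 (chr2:71872974-71873273, plus strand) are shown because both were higher there. Capitals mark ACGTG or GCGTG on either strand, so that CACGT and CACGC are the same cores read from the other strand.
Ldha: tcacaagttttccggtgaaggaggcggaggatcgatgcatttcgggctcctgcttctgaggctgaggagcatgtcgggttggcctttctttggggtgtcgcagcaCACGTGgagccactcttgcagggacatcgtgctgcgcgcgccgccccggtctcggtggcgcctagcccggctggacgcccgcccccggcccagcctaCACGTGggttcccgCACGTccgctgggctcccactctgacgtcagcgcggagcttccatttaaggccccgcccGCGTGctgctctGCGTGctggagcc
Pgk1: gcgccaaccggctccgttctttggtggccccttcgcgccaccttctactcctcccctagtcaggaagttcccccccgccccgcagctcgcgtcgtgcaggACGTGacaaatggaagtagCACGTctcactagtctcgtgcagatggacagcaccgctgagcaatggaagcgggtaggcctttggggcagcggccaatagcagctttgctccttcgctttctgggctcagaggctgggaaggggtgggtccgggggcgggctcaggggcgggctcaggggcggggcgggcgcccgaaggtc
Slc2a1: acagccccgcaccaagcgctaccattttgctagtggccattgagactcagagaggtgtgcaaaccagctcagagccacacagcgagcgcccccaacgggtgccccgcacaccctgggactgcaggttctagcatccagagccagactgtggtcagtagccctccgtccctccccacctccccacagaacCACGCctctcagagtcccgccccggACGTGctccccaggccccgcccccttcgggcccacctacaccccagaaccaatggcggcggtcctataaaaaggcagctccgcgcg
Pdk1: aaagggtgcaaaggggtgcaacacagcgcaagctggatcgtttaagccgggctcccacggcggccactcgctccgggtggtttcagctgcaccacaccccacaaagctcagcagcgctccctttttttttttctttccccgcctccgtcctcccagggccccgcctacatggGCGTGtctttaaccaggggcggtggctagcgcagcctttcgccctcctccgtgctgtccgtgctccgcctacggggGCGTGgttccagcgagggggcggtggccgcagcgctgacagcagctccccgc
The Ldha window held 7 cores, 4 of them in 2 CACGTG palindromes. The Pgk1 window held 2 ACGTG cores, the Pdk1 window 2 GCGTG cores and the Slc2a1 window 1 of each. A match in letters is a description and not a sign of binding.

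The 3 comparisons below each fitted 2 groups of 4 libraries with limma on log2(scaled count + 1), with Benjamini-Hochberg adjusted p over all 12200 tested genes and a threshold of 0.05. Differences are log2 values with their standard errors, the group named first minus the other, on a scale that understates the change of low genes. Each group enters 2 of the comparisons, so they are not independent of one another. Leaving out 1 fetal liver library lowered the calls of B-ALL over all genes. Against Pax5 WT they fell from 4873 genes to between 3477 and 4109, and against Pax5 KO from 4683 to between 3118 and 3284. A call lost in this way can leave the difference itself nearly unchanged.

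Against Pax5 WT pro-B cells, B-ALL cells had more Slc2a3 RNA and less RNA of Slc2a1 and of 5 enzymes of glycolysis and lactate formation. Of the 10 genes, 1 was higher (21.0% of all tested genes were called higher), 6 were lower (18.9% of all tested genes) and 3 did not pass the test. The lower genes were Slc2a1, Pfkl, Aldoa, Pgk1, Pkm and Ldha, and Hk1, Hk2 and Pdk1 did not pass. The median log2 difference was -0.76 over the 10 genes and -0.00 over all tested genes.

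Against Pax5 KO progenitors, B-ALL cells had 1 gene higher, Slc2a3 (17.6% of all tested genes were called higher), and 4 lower, Slc2a1, Hk1, Aldoa and Pkm (20.8% of all tested genes). Hk2, Pfkl, Pgk1, Ldha and Pdk1 did not pass. The median log2 difference was -0.49 over the 10 genes and -0.11 over all tested genes. The scaling mattered for this comparison: of all genes called by limma, 45.9% were higher with the deposited scaling, 35.5% in CPM (counts scaled to a library's total reads) and 52.1% with TMM scaling, and the median over all tested genes was -0.11, -0.26 and -0.04. In edgeR, where the test differed too, 58.1% were higher and the median was 0.06. Slc2a1, Hk1, Aldoa and Pkm were called lower under each of these settings, whereas Slc2a3 was not called in CPM (log2 difference 0.57, adjusted p = 0.0695).

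Between the 2 fetal liver groups all 10 genes differed, 5 in each direction. Slc2a1, Slc2a3, Hk1, Hk2 and Pdk1, the genes of glucose entry and the kinase that holds pyruvate back, were higher in Pax5 KO cells than in Pax5 WT. Pfkl, Aldoa, Pgk1, Pkm and Ldha, the genes of the steps from phosphofructokinase to lactate, were lower. These 5 higher and 5 lower genes stood against 35.7% and 29.1% of all tested genes called in each direction, and the groups did not overlap for any of the 10, which also held for 59.1% of all tested genes. The median log2 difference was -0.02 over the 10 genes and 0.06 over all tested genes. Other genes of the same steps did not all go with them: Pfkm, for the muscle-type phosphofructokinase subunit (log2 difference 0.32 ± 0.10, adjusted p = 0.0111), and the scarce lactate dehydrogenase gene Ldhb (log2 difference 1.73 ± 0.40, adjusted p = 0.00251) were higher in Pax5 KO, Pfkm not in the fit to all 12 libraries (adjusted p = 0.149). In that fit, into which the wider spread of B-ALL enters, Slc2a3, Hk1, Pgk1 and Ldha remained called and the other 6 did not, with adjusted p between 0.0705 (Pkm) and 0.626 (Hk2).

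**Figure D2:**
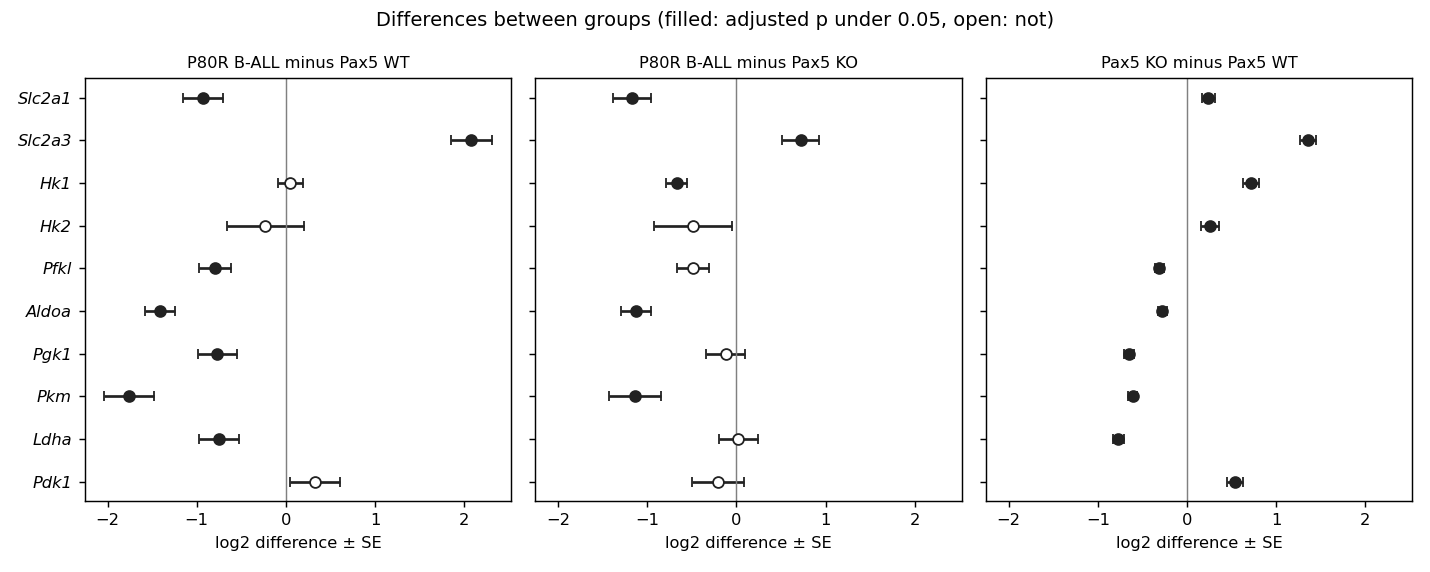
Log2 differences ± SE (x axis) of the 10 genes (y axis) in the 3 comparisons, from limma on 4 libraries per group, with filled points where the adjusted p was under 0.05. Slc2a3 lies right of 0 in all 3 comparisons, Aldoa and Pkm lie left of 0 in all 3, and Slc2a1 lies left of 0 for B-ALL but right of 0 for Pax5 KO minus Pax5 WT.

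Slc2a3 (ENSMUSG00000003153, chromosome 6) encodes GLUT3, a glucose transporter of high affinity. It had 1712, 1243, 2422 and 2344 scaled counts in B-ALL, against 1092, 1125, 1119 and 1198 in Pax5 KO libraries 1 to 4 and 461, 454, 466 and 386 in Pax5 WT libraries 1 to 4. Every B-ALL library lay above every Pax5 KO library, and every Pax5 KO library above every Pax5 WT library. Slc2a3 was 4.22-fold higher in B-ALL than in Pax5 WT (log2 difference 2.08 ± 0.23, adjusted p = 0.00016), and the difference stayed between 1.95 and 2.27 when any library was left out. It was also higher in Pax5 KO cells than in Pax5 WT (log2 difference 1.36 ± 0.09, adjusted p = 4.94e-08). The smaller excess of B-ALL over Pax5 KO (log2 difference 0.72 ± 0.21, adjusted p = 0.0265) was not past the threshold when any 1 of the 4 Pax5 KO libraries, recipient 1302, or recipients 1300 and 1308 together were left out, with adjusted p between 0.0521 and 0.0757.

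Slc2a1 (ENSMUSG00000028645, chromosome 4) encodes GLUT1, the widespread basal glucose transporter. It had 790.2, 419.6, 789 and 637 scaled counts in B-ALL, against 1362, 1441, 1408 and 1546 in Pax5 KO and 1197, 1114, 1268 and 1306 in Pax5 WT. All 4 B-ALL libraries lay below all 8 fetal liver libraries, recipient 1301 lowest. Slc2a1 was lower in B-ALL than in Pax5 WT (log2 difference -0.93 ± 0.22, adjusted p = 0.00809) and than in Pax5 KO (log2 difference -1.17 ± 0.21, adjusted p = 0.00356). It was slightly higher in Pax5 KO cells than in Pax5 WT (log2 difference 0.24 ± 0.07, adjusted p = 0.0149), a call that was lost without Pax5 KO library 4 (adjusted p = 0.0534) and without Pax5 WT library 2 (adjusted p = 0.0520). Its exons overlap those of an annotated antisense gene by 105 bases, and the library kit does not mark strand.

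Per merged exon length, the balance of the 2 transporters set the groups apart. Slc2a1 made up 48.8, 41.1, 40.2 and 35.9% of the summed TPM of Slc2a1 and Slc2a3 in B-ALL, 72.0 to 72.7% in Pax5 KO and 83.5 to 87.5% in Pax5 WT. Slc2a3 was thus the more abundant transcript in every B-ALL library and the less abundant in every fetal liver library. The sum of both was 22.3 to 53.4 TPM in B-ALL, 60.5 to 65.1 in Pax5 KO and 38.5 to 43.2 in Pax5 WT, so that B-ALL and Pax5 WT overlapped in the sum. TPM depends on the rest of a library: Slc2a3 in recipients 1302 and 1308 had 2422 and 2344 scaled counts but 31.9 and 22.0 TPM. The order of groups in this sum therefore holds for TPM only.

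**Figure D3:**
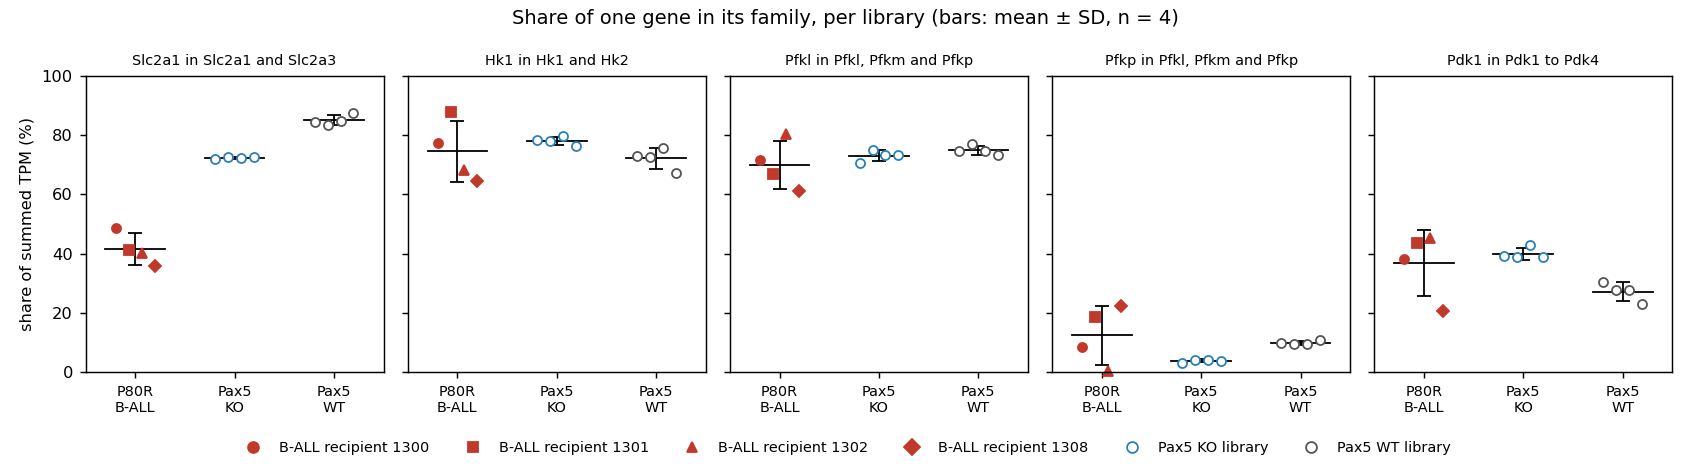
Share of 1 gene in the summed TPM of its family (y axis, percent) in each library of P80R B-ALL, Pax5 KO and Pax5 WT, with bars at the mean ± SD of 4 libraries; red shapes give the B-ALL recipients. The share of Slc2a1 separates the 3 groups without overlap, while the hexokinase, phosphofructokinase and kinase shares of B-ALL spread across those of the fetal liver groups.

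Hk1 (ENSMUSG00000037012, chromosome 10) encodes hexokinase 1, the constitutive mitochondria-bound hexokinase. It had 1899.9, 1569, 1979.9 and 1856 scaled counts in B-ALL, against 2756, 3125, 2934 and 2778 in Pax5 KO and 1945, 1808, 1844 and 1486 in Pax5 WT. The Pax5 KO libraries lay above all others, while B-ALL and Pax5 WT overlapped. Hk1 was higher in Pax5 KO cells than in Pax5 WT (log2 difference 0.72 ± 0.09, adjusted p = 1.51e-05) and lower in B-ALL than in Pax5 KO (log2 difference -0.67 ± 0.12, adjusted p = 0.00364). Between B-ALL and Pax5 WT the difference was within its error (log2 difference 0.05 ± 0.14, adjusted p = 0.823). With an SD of 0.15 on the log2 scale Hk1 was the most even of the 10 genes among the 4 leukaemias. Its exons overlap those of an antisense gene, Hk1os, by 157 bases.

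Hk2 (ENSMUSG00000000628, chromosome 6) encodes hexokinase 2, the inducible hexokinase found in many tumours. It had 387, 153, 644 and 709 scaled counts in B-ALL, against 532, 612, 527 and 607 in Pax5 KO and 502, 479, 414 and 507 in Pax5 WT. The leukaemias fell on both sides of the other groups, recipient 1308 being 4.64-fold above recipient 1301, and with an SD of 1.01 Hk2 was the least even of the 10 genes in B-ALL. No difference of B-ALL passed the test, against Pax5 WT (log2 difference -0.23 ± 0.43, adjusted p = 0.708) or against Pax5 KO (log2 difference -0.49 ± 0.44, adjusted p = 0.404), and without recipient 1301 the difference from Pax5 WT was 0.24 (adjusted p = 0.448). The small excess of Pax5 KO over Pax5 WT (log2 difference 0.26 ± 0.10, adjusted p = 0.0388) was not past the threshold without Pax5 KO library 2 or 4 or Pax5 WT library 2 or 3 (adjusted p 0.0661 to 0.115), or in edgeR (adjusted p = 0.0520). Hk1 gave 77.5, 87.8, 68.3 and 64.7% of the summed TPM of Hk1 and Hk2 in B-ALL, 76.2 to 79.6% in Pax5 KO and 67.2 to 75.7% in Pax5 WT.

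Pfkl (ENSMUSG00000020277, chromosome 10) encodes the liver-type subunit of phosphofructokinase, the enzyme of the committed step. It had 3361, 3555, 4652 and 2499 scaled counts in B-ALL, against 4753, 4976, 4754 and 4753 in Pax5 KO and 5893, 6285, 6007 and 5732 in Pax5 WT. The 3 groups did not overlap, although recipient 1302 came close to Pax5 KO. Pfkl was lower in B-ALL than in Pax5 WT (log2 difference -0.80 ± 0.18, adjusted p = 0.00709) and lower in Pax5 KO than in Pax5 WT (log2 difference -0.31 ± 0.05, adjusted p = 0.000226). Against Pax5 KO the difference of B-ALL just missed the threshold (log2 difference -0.49 ± 0.18, adjusted p = 0.058) and passed it without recipient 1302 (log2 difference -0.63, adjusted p = 0.00919). Pfkl gave 61.2 to 80.4% of the TPM of the 3 phosphofructokinase genes in B-ALL, 70.6 to 75.0% in Pax5 KO and 73.4 to 77.0% in Pax5 WT. The platelet-type gene Pfkp varied most, at 799, 1987, 58.3 and 1832 scaled counts in B-ALL, 429 to 555 in Pax5 KO and 1542 to 1727 in Pax5 WT, and recipient 1302 had the highest Pfkl and the lowest Pfkp of the leukaemias. Pfkp was lower in Pax5 KO than in Pax5 WT (log2 difference -1.65 ± 0.09, adjusted p = 1.81e-08), a call lost in the fit to all 12 libraries (adjusted p = 0.153).

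Aldoa (ENSMUSG00000030695, chromosome 7) encodes aldolase A, which splits fructose 1,6-bisphosphate into a pair of three-carbon sugars. It had 5193, 8166, 8869 and 8155 scaled counts in B-ALL, against 15546, 16905, 16051 and 16686 in Pax5 KO and 19293, 19409, 19691 and 20795 in Pax5 WT. The 3 groups did not overlap, and recipient 1300 was the lowest of all libraries. Aldoa was lower in B-ALL than in Pax5 WT (log2 difference -1.41 ± 0.17, adjusted p = 0.000312) and than in Pax5 KO (log2 difference -1.13 ± 0.17, adjusted p = 0.00174). In Pax5 KO it was lower than in Pax5 WT by a smaller amount (log2 difference -0.28 ± 0.05, adjusted p = 0.000428). The table holds a further identifier with the symbol Aldoa, with values of 3.29 to 28.4, which was not used, and the exons of Aldoa overlap those of Fam57b on the other strand by 25 bases.

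Pkm (ENSMUSG00000032294, chromosome 9) encodes the muscle pyruvate kinases M1 and M2, which make pyruvate in the last ATP-gaining step. It had 10027, 24484, 26053 and 13466 scaled counts in B-ALL, against 35619, 38874, 38256 and 38604 in Pax5 KO and 55850, 57572, 57398 and 60635 in Pax5 WT. The 3 groups did not overlap, and recipients 1300 and 1308 were lower than recipients 1301 and 1302. Pkm showed the widest deficit of the 10 genes in B-ALL against Pax5 WT (log2 difference -1.76 ± 0.28, adjusted p = 0.00128), with 3.38-fold less RNA, and was also lower in B-ALL than in Pax5 KO (log2 difference -1.14 ± 0.29, adjusted p = 0.0143). Without recipients 1300 and 1308 the difference from Pax5 KO shrank to -0.58 and was still called (adjusted p = 0.00266). Pkm was lower in Pax5 KO than in Pax5 WT (log2 difference -0.61 ± 0.05, adjusted p = 4.52e-07). Gene counts do not tell the M1 and M2 transcripts apart, and Pkm shares 767 bases of exon with an annotated gene on its own strand.

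Pgk1 (ENSMUSG00000062070, chromosome X) encodes phosphoglycerate kinase 1, the enzyme of the earlier ATP-gaining step. It had 5216, 10808, 6702 and 5284 scaled counts in B-ALL, against 6729, 7436, 7575 and 7388 in Pax5 KO and 11097, 11540, 10593 and 12512 in Pax5 WT. Recipient 1301 lay within the Pax5 WT range, and the other 3 leukaemias lay below every Pax5 KO library. Pgk1 was lower in Pax5 KO than in Pax5 WT (log2 difference -0.65 ± 0.06, adjusted p = 2.67e-06) and did not differ past the threshold between B-ALL and Pax5 KO (log2 difference -0.12 ± 0.22, adjusted p = 0.692), where it was 0.23 without recipients 1300 and 1308 (adjusted p = 0.34). Its call against Pax5 WT (log2 difference -0.77 ± 0.22, adjusted p = 0.0217) was lost without Pax5 WT library 1, 2 or 4 or recipient 1300 (adjusted p 0.0516 to 0.0579). The log2 difference then was -0.79 to -0.73 without a Pax5 WT library and -0.65 without recipient 1300. The call was also lost without recipients 1300 and 1308 together (log2 difference -0.42, adjusted p = 0.116).

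Ldha (ENSMUSG00000063229, chromosome 7) encodes the subunit of lactate dehydrogenase that favours lactate formation. It had 41915, 83217, 61205 and 40625 scaled counts in B-ALL, against 49598, 54372, 54627 and 55303 in Pax5 KO and 86531, 90976, 89222 and 99100 in Pax5 WT. As for Pgk1, recipient 1301 was the highest leukaemia, and the order of the 4 leukaemias differed only in which of recipients 1300 and 1308 was lowest. Ldha was lower in Pax5 KO than in Pax5 WT (log2 difference -0.77 ± 0.06, adjusted p = 1.82e-07). Its lower level in B-ALL than in Pax5 WT had a log2 difference of -0.75 ± 0.22 (adjusted p = 0.0234). This was not past the threshold when any 1 of the 4 Pax5 WT libraries or recipient 1300 was left out (adjusted p 0.0516 to 0.0611). The log2 difference then was -0.78 to -0.71 without a Pax5 WT library and -0.63 without recipient 1300. Without recipients 1300 and 1308 together it was -0.36 (adjusted p = 0.0834). Against Pax5 KO the difference was 0.02 ± 0.22 (adjusted p = 0.946), and without those 2 recipients Ldha was called higher in B-ALL (log2 difference 0.42, adjusted p = 0.0413). Ldha gave at least 99.5% of the summed TPM of Ldha and Ldhb in every library.

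Pdk1 (ENSMUSG00000006494, chromosome 2) encodes a kinase that switches off pyruvate dehydrogenase. It had 4481, 7214, 6282 and 2628 scaled counts in B-ALL, against 4916, 5813, 6149.6 and 5428 in Pax5 KO and 4065, 4051, 3920 and 3275 in Pax5 WT. Recipient 1308 was below every other library and recipient 1301 above every other library. Pdk1 was higher in Pax5 KO cells than in Pax5 WT (log2 difference 0.54 ± 0.09, adjusted p = 0.000164). In B-ALL it passed the test neither against Pax5 WT (log2 difference 0.33 ± 0.28, adjusted p = 0.373) nor against Pax5 KO (log2 difference -0.21 ± 0.29, adjusted p = 0.59). Without recipient 1308 it was called higher in B-ALL than in Pax5 WT (log2 difference 0.62, adjusted p = 0.023), and likewise without recipients 1300 and 1308 (0.82, adjusted p = 0.00319). Without both, its difference from Pax5 KO was 0.28 (adjusted p = 0.105). Pdk3, the more abundant kinase gene, gave 54.4 to 69.3% of the TPM of the 4 kinase genes in B-ALL, 51.8 to 56.3% in Pax5 KO and 68.0 to 75.5% in Pax5 WT. Pdk1 gave 38.1, 43.5, 45.2 and 20.7%, 38.8 to 42.9% and 23.0 to 30.5% in the same order. Pdk4, a kinase gene of fasting tissues, had 22.4, 6.15, 4.96 and 77.5 scaled counts in B-ALL and at most 1.52 in any fetal liver library, and was not tested.

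The 4 leukaemias did not share an order across the genes. Recipient 1302 was highest for 5 of the 10 genes (Slc2a3, Hk1, Pfkl, Aldoa and Pkm) and lowest for none. Recipient 1301 was lowest for all 4 genes of transport and hexokinase and highest for Pgk1, Ldha and Pdk1. Recipient 1300 was lowest for Aldoa, Pgk1 and Pkm, and recipient 1308 for Pfkl, Ldha and Pdk1. The 2 recipients with the most erythroid and granulocyte reads, 1300 and 1308, thus had the 2 lowest levels of each of the 6 genes from Pfkl to Pdk1. For Aldoa, however, recipients 1308 and 1301 were nearly level, at 8155 and 8166 scaled counts. The part of those other cells in the levels of the 6 genes was not tested. Without both recipients, Slc2a1 (-1.08, adjusted p = 0.0123), Slc2a3 (1.98, adjusted p = 0.00141), Pfkl (-0.56, adjusted p = 0.0147), Aldoa (-1.22, adjusted p = 0.00017) and Pkm (-1.20, adjusted p = 0.00016) were still called in the log2 difference of B-ALL from Pax5 WT. Slc2a1 (-1.32, adjusted p = 0.00484), Hk1 (-0.72, adjusted p = 0.00449) and Aldoa (-0.94, adjusted p = 0.000472) were still called lower than in Pax5 KO, while the difference of Pfkl shrank to -0.24 (adjusted p = 0.148). Reads in 20 genes of the G2 and M phases, which mark dividing cells, made up 0.265% to 0.372% in B-ALL, 0.507% to 0.524% in Pax5 KO and 0.867% to 0.932% in Pax5 WT. All 20 were called lower in B-ALL than in Pax5 WT, 15 in B-ALL than in Pax5 KO and all 20 in Pax5 KO than in Pax5 WT. Of all tested genes, 18.9%, 20.8% and 29.1% were called lower in these comparisons. The order of groups was the same as for Pfkl, Aldoa and Pkm, and the part of dividing cells in the lower enzyme levels was not tested.

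**Figure D4:**
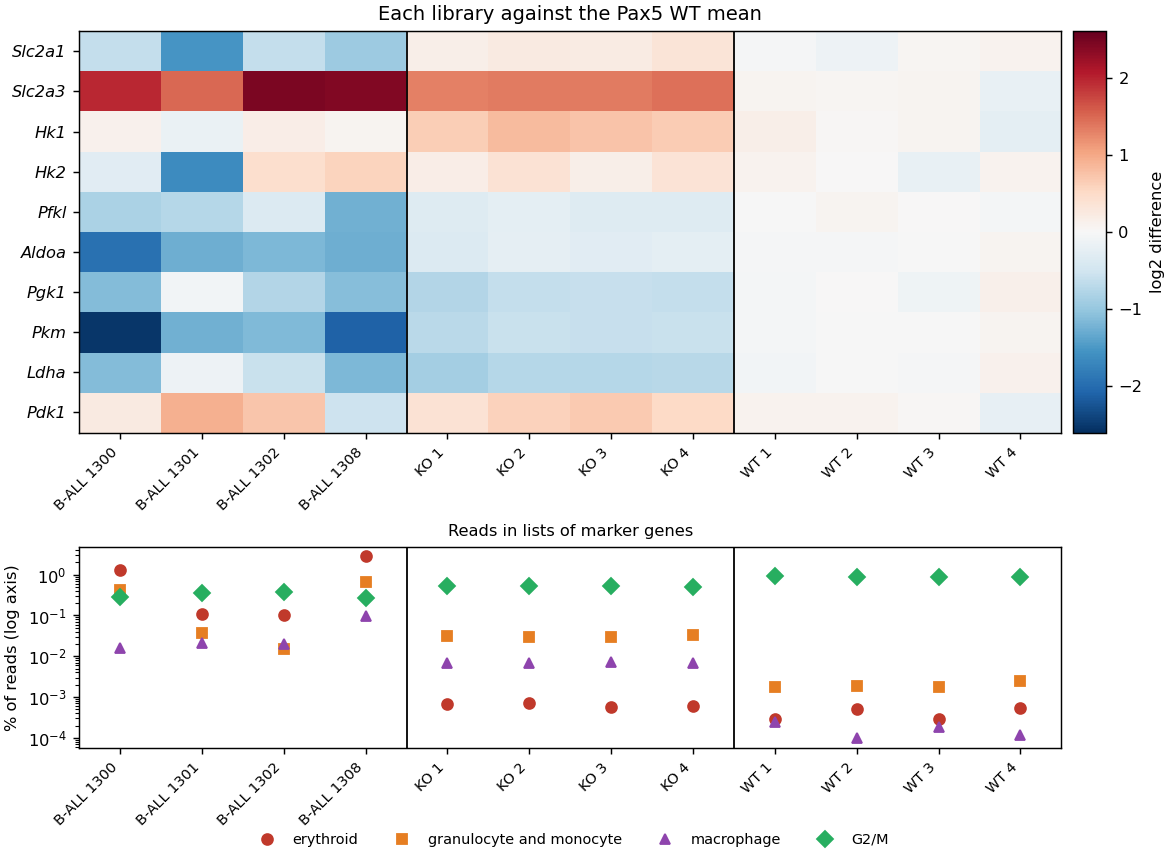
Log2 difference of each library (columns) from the Pax5 WT mean for the 10 genes (rows, upper panel), and percent of reads in 4 lists of marker genes in the same libraries (lower panel, log axis). Recipients 1300 and 1308 have the 2 deepest blues for Pkm, Pgk1 and Ldha and the highest erythroid reads (1.27% and 2.87%), and recipient 1301 is pale for Pgk1 and Ldha.

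As a description of likeness over the 12 libraries, which fall into 3 groups, each gene was compared with every other tested gene by the Pearson correlation of log2 values. Pkm was most like Kif20a (r = 0.993), a gene of cell division, and Gapdh (r = 0.993), the glycolytic dehydrogenase. Aldoa was most like Sgta (r = 0.994), Pfkl like Ncl (r = 0.989), Pgk1 like Timm50 (r = 0.988) and Ldha like Mif (r = 0.985). Slc2a3 was most like Spns3 (r = 0.983), Slc2a1 like Syde2 (r = 0.984), Hk1 like Senp2 (r = 0.980), Hk2 like Stag3 (r = 0.963) and Pdk1 like Mmachc (r = 0.938). Among the 10 genes themselves Pgk1 and Ldha (r = 0.98) and Aldoa and Pkm (r = 0.96) were the closest pairs, and Slc2a3 and Pgk1 the most opposed (r = -0.87).

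The other genes of the pathway were read from lists holding 61 genes, of which 46 passed the filter. Of these, 8 were higher and 10 lower in B-ALL than in Pax5 WT (21.0% and 18.9% of all tested genes), with a median log2 difference of -0.11. In B-ALL 5 were higher and 11 lower than in Pax5 KO (17.6% and 20.8% of all tested genes), with a median of -0.09. In Pax5 KO 19 were higher and 15 lower than in Pax5 WT (35.7% and 29.1% of all tested genes), with a median of 0.04. In the lower part of glycolysis 6 of 10 listed genes were tested, of which 1 was higher and 3 were lower in B-ALL than in Pax5 WT, 1 was higher and 1 lower in B-ALL than in Pax5 KO, and 1 was higher and 3 were lower in Pax5 KO than in Pax5 WT. The 3 lower in B-ALL than in Pax5 WT were Eno1, Gapdh and Pgam1, for phosphoglycerate mutase. Pgam1 and Tpi1, which belongs to the upper steps, were chosen after their values were seen. The call of Pgam1 (log2 difference -0.78 ± 0.24, adjusted p = 0.029) was lost when any 1 Pax5 WT library, recipient 1300 or recipient 1308 was left out (adjusted p 0.061 to 0.0705), and in edgeR (adjusted p = 0.0518).

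Eno1, for enolase 1, had 23376, 46682, 48777 and 27232 scaled counts in B-ALL, 30405 to 34058 in Pax5 KO and 60954 to 71753 in Pax5 WT. It was lower in B-ALL than in Pax5 WT (log2 difference -0.91 ± 0.24, adjusted p = 0.0139) and lower in Pax5 KO than in Pax5 WT (adjusted p = 3.38e-08). Without recipients 1300 and 1308 its deficit in B-ALL against Pax5 WT was -0.45 (adjusted p = 0.0132). Tpi1, for triose phosphate isomerase, averaged 9632 ± 2337 in B-ALL, 15084 ± 971 in Pax5 KO and 21030 ± 1526 in Pax5 WT and was lower in B-ALL than in Pax5 WT (log2 difference -1.16 ± 0.18, adjusted p = 0.00116). Gapdh averaged 1397 ± 510.3, 2545 ± 78.2 and 3470.2 ± 293 in the same order, and was lower in B-ALL than in Pax5 WT (log2 difference -1.39 ± 0.26, adjusted p = 0.00276). Without recipients 1300 and 1308 these differences from Pax5 WT shrank to -0.86 for Tpi1 (adjusted p = 0.001) and -0.93 for Gapdh (adjusted p = 0.00117). The enolase gene of muscle, Eno3, went the other way at a low level, with 358, 265, 295 and 409.6 scaled counts in B-ALL, 146 to 198 in Pax5 KO and 51.0 to 79.1 in Pax5 WT, and was higher in B-ALL than in Pax5 WT (log2 difference 2.29 ± 0.30, adjusted p = 0.000392). Gapdh, Aldoa, Pgk1, Ldha and others of these genes have near-identical processed pseudogenes, and how reads matching several places were counted is not known here, so their levels are uncertain.

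Among the other genes of the upper steps 7 of 9 were tested. Of these, 1 was higher and 3 were lower in B-ALL than in Pax5 WT (21.0% and 18.9% of all tested genes). In B-ALL 4 were lower than in Pax5 KO (20.8% of all tested genes). In Pax5 KO 3 were higher and 4 lower than in Pax5 WT (35.7% and 29.1% of all tested genes). Hk3, the hexokinase of myeloid cells, had 119.7, 36.9, 54.6 and 713 scaled counts in B-ALL, 41.1, 15.6, 10.3 and 34.0 in Pax5 KO and 0 in all 4 Pax5 WT libraries. Taking 3 reads per library as the floor, Hk3 was at least 81.2-fold higher in B-ALL than in Pax5 WT, or at least 24.7-fold without recipient 1308, and at least 8.87-fold higher in Pax5 KO cells than in Pax5 WT. The highest Hk3 values, in recipients 1308 and 1300, fell in the leukaemias with the most granulocyte and monocyte reads; their part in Hk3 was not tested. Hk3 passed the filter through the groups in which it was high.

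Among other transporter genes, 4 of 10 were tested. Slc2a6, for GLUT6, had 14.5, 96.0, 334 and 1038 scaled counts in B-ALL, 149.6 to 207 in Pax5 KO and 12.9 to 32.7 in Pax5 WT. It was higher in Pax5 KO cells than in Pax5 WT (log2 difference 3.05 ± 0.29, adjusted p = 1.79e-06), and in B-ALL it ranged from below the Pax5 WT mean to above every fetal liver library. Slc2a6 did not pass the test between B-ALL and Pax5 WT (log2 difference 2.83 ± 1.11, adjusted p = 0.0679). Without recipient 1300 it was called higher in B-ALL (log2 difference 3.93, adjusted p = 0.00511). Slc2a9, a urate carrier, was lower in Pax5 KO than in Pax5 WT (log2 difference -1.41 ± 0.27, adjusted p = 0.000597). Slc2a5, the fructose transporter gene, had 217, 34.5, 52.1 and 2.77 in B-ALL, 2.28 to 22.3 in Pax5 KO and 0 to 2.00 in Pax5 WT, where only 1 library had any reads.

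Of 7 genes for the enzymes that make or remove fructose bisphosphates, 6 were tested. Pfkfb3, for the kinase that makes the phosphofructokinase activator fructose 2,6-bisphosphate, had 782, 793, 837 and 583 scaled counts in B-ALL, 789.7 to 992 in Pax5 KO and 1201 to 1535 in Pax5 WT. It was lower in B-ALL than in Pax5 WT (log2 difference -0.88 ± 0.17, adjusted p = 0.00321) and in Pax5 KO than in Pax5 WT (log2 difference -0.62 ± 0.10, adjusted p = 0.000145), as was Pfkl. The relatives Pfkfb4 (log2 difference 1.13 ± 0.20, adjusted p = 0.000337) and Pfkfb1 (log2 difference 0.84 ± 0.17, adjusted p = 0.00117) were higher in Pax5 KO cells than in Pax5 WT, and in B-ALL neither passed the test in either comparison.

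Of 18 other genes for the fate of pyruvate and lactate 16 were tested. Of these, 4 were higher and 2 lower in B-ALL than in Pax5 WT (21.0% and 18.9% of all tested genes). In B-ALL 3 were higher and 4 lower than in Pax5 KO (17.6% and 20.8% of all tested genes). In Pax5 KO 8 were higher and 3 lower than in Pax5 WT (35.7% and 29.1% of all tested genes). Monocarboxylate transporters carry lactate and pyruvate across the plasma membrane. Slc16a7, for MCT2, had 1769.7, 293, 654 and 959 scaled counts in B-ALL, 547 to 663 in Pax5 KO and 33.0 to 72.8 in Pax5 WT. It was higher in B-ALL (log2 difference 3.93 ± 0.51, adjusted p = 0.000426) and in Pax5 KO (log2 difference 3.66 ± 0.21, adjusted p = 1.75e-08) than in Pax5 WT. Slc16a1, for MCT1, was far more abundant, with 28013, 25323, 13887 and 6349 in B-ALL, 11558 to 13975 in Pax5 KO and 24291 to 26243 in Pax5 WT. It was lower in Pax5 KO than in Pax5 WT (log2 difference -0.94 ± 0.07, adjusted p = 1.2e-07), a call that missed the threshold in the fit to all 12 libraries (adjusted p = 0.0587), and its 4 leukaemias spanned both groups. Pdk2, for a further kinase of pyruvate dehydrogenase, had 329, 24.6, 18.6 and 447 in B-ALL, 249.7 to 345 in Pax5 KO and 79.4 to 119.6 in Pax5 WT, and was higher in Pax5 KO cells than in Pax5 WT (log2 difference 1.59 ± 0.17, adjusted p = 6.43e-06). In B-ALL Pdk2 passed the test neither against Pax5 WT (log2 difference -0.10 ± 1.00, adjusted p = 0.949) nor against Pax5 KO (log2 difference -1.69 ± 1.00, adjusted p = 0.209). Recipients 1300 and 1308 had the higher Pdk2 values of the leukaemias. Without them Pdk2 was called lower in B-ALL than in Pax5 WT (log2 difference -2.15, adjusted p = 0.00246) and than in Pax5 KO (log2 difference -3.74, adjusted p = 7.3e-05).

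The mitochondrial pyruvate carrier takes pyruvate into mitochondria and is formed by the products of Mpc1 and Mpc2, which were chosen after their values were seen. Mpc2 had 8237, 8555, 4462 and 8210.5 scaled counts in B-ALL, 3306 to 3706 in Pax5 KO and 2427 to 3689 in Pax5 WT. Every leukaemia lay above every fetal liver library, and Mpc2 was higher in B-ALL than in Pax5 WT (log2 difference 1.29 ± 0.23, adjusted p = 0.00216) and than in Pax5 KO (log2 difference 1.03 ± 0.21, adjusted p = 0.0059). Mpc1 had 981, 1101, 814 and 1655 in B-ALL, 614 to 644 in Pax5 KO and 578 to 741 in Pax5 WT. Mpc1 was higher in B-ALL than in Pax5 WT (log2 difference 0.81 ± 0.23, adjusted p = 0.0183), not past the threshold without Pax5 WT library 1, 2 or 3 (adjusted p 0.0523 to 0.0573). Summed, Mpc1 and Mpc2 had 95.3 to 134 TPM in B-ALL, 83.9 to 87.4 in Pax5 KO and 63.3 to 79.9 in Pax5 WT, whereas Aldoa, Pgk1, Pkm and Ldha together had 1369 to 2885, 3413 to 3620.4 and 5032 to 5136 TPM in the same order.

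The pentose phosphate pathway draws on glucose 6-phosphate for NADPH and ribose, and all 7 of its listed genes were tested. In B-ALL none was higher and 1 was lower than in Pax5 WT (21.0% and 18.9% of all tested genes). Against Pax5 KO 1 was higher and 2 were lower in B-ALL (17.6% and 20.8% of all tested genes). In Pax5 KO 1 was higher and 3 were lower than in Pax5 WT (35.7% and 29.1% of all tested genes). G6pdx, for its entry enzyme, had 1189.9, 1675, 2238 and 2841 scaled counts in B-ALL, 3667 to 4005 in Pax5 KO and 2829.8 to 2862 in Pax5 WT, was lower in B-ALL than in Pax5 KO (log2 difference -1.01 ± 0.24, adjusted p = 0.0114) and higher in Pax5 KO cells than in Pax5 WT (log2 difference 0.42 ± 0.05, adjusted p = 2.58e-05). Tkt, for transketolase and chosen after its values were seen, was lower in B-ALL than in Pax5 WT (log2 difference -0.98 ± 0.17, adjusted p = 0.00217) and than in Pax5 KO (log2 difference -0.95 ± 0.17, adjusted p = 0.00371). Rpia (log2 difference -1.07 ± 0.22, adjusted p = 0.00117) and Pgls (log2 difference -0.32 ± 0.07, adjusted p = 0.00156), for the isomerase and lactonase of the pathway, were lower in Pax5 KO than in Pax5 WT.

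Of 24 listed regulators of these genes 23 were tested. In B-ALL 7 were higher and 6 lower than in Pax5 WT (21.0% and 18.9% of all tested genes). Against Pax5 KO 6 were higher and 9 lower in B-ALL (17.6% and 20.8% of all tested genes). In Pax5 KO 10 were higher and 7 lower than in Pax5 WT (35.7% and 29.1% of all tested genes). Epas1, which encodes HIF-2alpha, the factor named in the study's title, had 134, 132, 176 and 205 scaled counts in B-ALL, 1.71 to 7.95 in Pax5 KO and 0 to 11.3 in Pax5 WT. Epas1 was higher in B-ALL than in Pax5 WT (log2 difference 4.85 ± 0.79, adjusted p = 0.00128) and than in Pax5 KO (log2 difference 4.87 ± 0.53, adjusted p = 0.000422). Epas1 passed the filter only through B-ALL, where it was high, so a difference had to be present. Hif1a, for HIF-1alpha, averaged 3778 ± 346 in B-ALL, 4886 ± 394 in Pax5 KO and 4229.9 ± 209.8 in Pax5 WT and did not pass the test between B-ALL and Pax5 WT (log2 difference -0.17 ± 0.12, adjusted p = 0.302). Its lower level in B-ALL than in Pax5 KO (log2 difference -0.37 ± 0.12, adjusted p = 0.037) was lost when any 1 Pax5 KO library, recipient 1300 or recipient 1301 was left out (adjusted p 0.0532 to 0.118), and in edgeR (adjusted p = 0.0709). Egln3, for an oxygen-sensing prolyl hydroxylase that is itself induced by hypoxia-inducible factors, had 27.6, 1659, 362 and 314 in B-ALL, 1528 to 1669.8 in Pax5 KO and 44.5 to 95.5 in Pax5 WT. It was higher in Pax5 KO cells than in Pax5 WT (log2 difference 4.64 ± 0.19, adjusted p = 8.83e-10), while among the leukaemias recipient 1300 was below the Pax5 WT libraries and recipient 1301 at the level of Pax5 KO. Egln3 did not pass the test between B-ALL and Pax5 WT (log2 difference 2.10 ± 1.02, adjusted p = 0.129). Without recipient 1300 it was called higher in B-ALL (log2 difference 3.18, adjusted p = 0.00406).

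Myc, a transcription factor known to raise many glycolytic genes, had 14105, 13595, 20282 and 4929 scaled counts in B-ALL, 15360 to 16226 in Pax5 KO and 8429 to 8882 in Pax5 WT. Myc was higher in Pax5 KO cells than in Pax5 WT (log2 difference 0.86 ± 0.05, adjusted p = 1.3e-08), and in B-ALL recipient 1308 was below every fetal liver library. Myc did not pass the test between B-ALL and Pax5 WT (log2 difference 0.44 ± 0.36, adjusted p = 0.365). Without recipient 1308 it was called higher in B-ALL (log2 difference 0.86, adjusted p = 0.00315). Irf4, for a B-lineage transcription factor, was lower in B-ALL than in Pax5 WT (log2 difference -1.99 ± 0.48, adjusted p = 0.0104), with -1.27 without recipients 1300 and 1308 (adjusted p = 0.0401), and lower in Pax5 KO than in Pax5 WT (log2 difference -3.69 ± 0.15, adjusted p = 9.5e-10). Txnip, for an inhibitor of glucose uptake that acts on GLUT1 and was chosen after its values were seen, had 6657, 2705, 4714 and 9989 in B-ALL, 1547 to 1729 in Pax5 KO and 1834 to 2067 in Pax5 WT. It was higher in B-ALL than in Pax5 WT (log2 difference 1.48 ± 0.33, adjusted p = 0.00709) and than in Pax5 KO (log2 difference 1.72 ± 0.34, adjusted p = 0.0052), and the differences were 0.88 (adjusted p = 0.0161) and 1.12 (adjusted p = 0.00566) without recipients 1300 and 1308. Bpgm, the red-cell gene for bisphosphoglycerate mutase, also chosen after its values were seen, had 3796, 618, 614 and 11595 in B-ALL, 309 to 379.7 in Pax5 KO and 369 to 431 in Pax5 WT, highest in the 2 recipients with the most erythroid reads. In the fit to all 12 libraries the calls between Pax5 KO and Pax5 WT were lost for Pdk2 (adjusted p = 0.173), G6pdx (adjusted p = 0.135), Pgls (adjusted p = 0.202), Pfkfb1 (adjusted p = 0.0631) and Myc (adjusted p = 0.0502).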

How the data were processed

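RNA-seq of 12 libraries of sorted mouse cells, 4 per group, was analysed. The SMART-Seq v4 kit was used, per the labels' protocols. The submitters' processing notes name fastp, featureCounts, STAR 2.7.8a and the mm39 build. Not given in the sources used here were annotation, strand setting and multi-mapping rules. The deposited values are signal, read counts that the authors had divided by 1 factor per library: 100% were whole multiples of a library's step (0.722 to 1.38) within 0.001, which gave back whole reads. Of 21885 identifiers, 21780 matched a symbol in GENCODE M21, used for names and exon lengths only.

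Genes reaching 10 in 4 or more libraries entered limma 3.58.1 (R 4.3.3; trend, robust, two-sided), run on log2(value + 1), in a fit for each pair of groups, since B-ALL libraries spread more than the others. The procedure was run on simulated data with the same dispersion for all genes of a group and no outlying libraries. That run is therefore no check of the calls in B-ALL. Alternatives were pooled fits, a pseudocount of 10, no filter, CPM, TMM, edgeR 4.0.16 and DESeq2 1.42.0 on recovered reads, a replicate block and leaving out libraries; recovered reads gave 4756, 4371 and 7880 genes called by edgeR in the 3 comparisons. TPM, shares and correlations are descriptions without tests.

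Named were the 10 genes, Pax5, Epas1, Hif1a, Myc, family members, up to 3 genes per pathway list with the smallest adjusted p, and genes said to be chosen after their values were seen; 1 gene that this rule names is not reported here. The 10 genes and the lists were chosen with earlier results of these data known.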

Additional observations from a re-analysis of the deposited data

Results flagged for a closer look

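In 3 of the 30 groups of 4 values (10 genes in 3 groups), 1 library stood away from the other 3 by more than the 95% critical value of Dixon's test, the gap as a share of the group's range; chance flags about 1 in 20 groups. Slc2a3 had 386 scaled counts in Pax5 WT library 4, against 454 to 466 in the other Pax5 WT libraries. Pfkl had 4976 in Pax5 KO library 2, against 4753 to 4754 in the others, a narrow range. Ldha had 49598 in Pax5 KO library 1, against 54372 to 55303 in the others. In B-ALL no library passed this limit for any of the 10 genes.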

How the results depend on the processing

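Of 510 refits of the 10 genes over 3 comparisons and 17 alternatives each, 471 kept their side of the threshold, 7 gained a call and 32 lost one; for the other genes examined the counts were 1716, 65 and 106. The sign differed in 13 and 35 of these refits, all of them of differences called neither as reported nor in the refit. Among the 10 genes these were Hk1 (-0.01 and -0.04) and Hk2 (0.03 and 0.24) against Pax5 WT, and Pgk1 (0.02 to 0.23), Ldha (-0.18 to -0.01) and Pdk1 (0.08 and 0.28) against Pax5 KO. Of the 10 genes, 1 was called higher in B-ALL than in Pax5 WT and 2 without recipients 1300 and 1308. Against Pax5 KO, 1 was called higher in B-ALL and 0 in CPM, where limma gave Slc2a3 an adjusted p of 0.0695. Of the other pathway genes, 5 were called higher there, and 3 with weights per group, 8 in DESeq2 and 8 without recipients 1300 and 1308. Between Pax5 KO and Pax5 WT the fit to all 12 libraries called 2 of the 10 genes higher and 2 lower, instead of 5 and 5, and 9 and 6 other pathway genes instead of 19 and 15; of all genes it called 2449 higher and 1744 lower, instead of 4352 and 3549. Leaving out each library in turn, genes called higher and lower in B-ALL than in Pax5 WT numbered 1 to 2 and 4 to 6 of the 10, and 7 to 10 and 8 to 10 of the other pathway genes. Against Pax5 KO these ranges were 0 to 1 and 4 to 5, and 3 to 7 and 6 to 12, and without Pax5 KO library 2 or 3 limma called 1613 or 1596 of all genes lower instead of 2532. Between Pax5 KO and Pax5 WT they were 3 to 5 and 5 to 5, and 14 to 18 and 13 to 15. The causes were not tested. Libraries of Pax5 KO and Pax5 WT with the same number had correlated deviations of 0.00 to 0.06, and not every library correlated best with its own number, so the numbers were not taken as pairs; with a replicate block, 5 of the 10 genes were higher and 5 lower, as without it, and 4415 and 3572 of all genes instead of 4352 and 3549. Among the 10 genes the lowest value rested on 124 reads, and what limited the precision of the differences was not tested.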
